A study of Mus musculus with 12 samples.

Results

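Pilra, Pilrb1, Cd300a, Cd300lf, Cd300lb, Lilrb4a, Sirpa and Cd200r1 encode cell-surface receptors of monocytes, macrophages and granulocytes, and most of them restrain the cell that carries them. They were taken by gene symbol from a mouse whole-transcriptome array, 8 genes of 30702 with a symbol. Each of the 8 had 1 transcript cluster, the probe set that the array summarises as 1 value, and all 8 were among the 37240 clusters bright enough to be tested. The cluster of a gene was to be selected on its mean log2 intensity over all arrays, which left no choice with 1 cluster each. The genes themselves were chosen by name with earlier results of these arrays known, MEC1 differences included. Their MEC1 differences are therefore a description, and a call of one supports nothing further about it.

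The study used Rag2-/- gamma c-/- mice of BALB/c background, which have no T, B or natural killer cells of their own and accept human grafts. MEC1, a human B cell line from chronic lymphocytic leukemia, was injected intravenously, and monocytes and macrophages were purified from the bone marrow with magnetic beads. The groups were mice with MEC1 at 21 days, early in the leukemia, and age-matched mice without MEC1, all 11 weeks old, then mice with MEC1 at 31 days, late in the leukemia, and age-matched mice without MEC1, all 13 weeks old. Each group had 3 mice and each mouse 1 array, so 12 arrays in all. Every mouse, with or without MEC1, carried the same Rag2 and gamma chain deficiency, and the leukemia came from a single cell line.

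These receptors belong to families in which an inhibitory and an activating gene often sit side by side. An inhibitory receptor carries tyrosine motifs (ITIMs) in its tail, which recruit phosphatases such as SHP-1 (Ptpn6) and SHIP1 (Inpp5d) and dampen signals from other receptors. An activating partner has a short tail and signals through the adaptor DAP12 (Tyrobp) and the kinase Syk. Pilra, Cd300a, Cd300lf, Lilrb4a and Sirpa are inhibitory receptors of the ITIM kind, and Cd200r1 is inhibitory through Dok adaptors. Pilrb1 and Cd300lb are activating receptors, so the name inhibitory does not cover all 8 genes.

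The promoters of Pilra, Pilrb1, Cd300lf and Cd300a are shown because receptors of 1 cluster had different differences with MEC1. That of Cd300lb, which was lower with MEC1 as Cd300a was, was searched too, but its sequence is not printed. Pilra and Pilrb1 lie next to each other on chromosome 5, at chr5:137821952-137836278 and chr5:137852141-137858425. Cd300a (chr11:114889152-114901946), Cd300lb (chr11:114922779-114934371) and Cd300lf (chr11:115116214-115135372) lie in the Cd300 cluster on chromosome 11. Lilrb4a is at chr10:51490898-51496613, Sirpa at chr2:129591042-129632228 and Cd200r1 at chr16:44765736-44794977. Coordinates and sequences are those of RefSeq on build GRCm38.p6, whose promoter table held 5 of the 8 genes, the exceptions being Lilrb4a, Sirpa and Cd200r1. Each sequence is the 250 bases before the transcript start that RefSeq's entry uses, on the gene's strand, 5′ to 3′. Those of Pilrb1, Cd300a and Cd300lf lie inside the gene's annotated span, upstream of that start. Capitals mark matches, on either strand, to 1 of 7 motifs.
Pilra, chr5:137836279-137836528, minus strand: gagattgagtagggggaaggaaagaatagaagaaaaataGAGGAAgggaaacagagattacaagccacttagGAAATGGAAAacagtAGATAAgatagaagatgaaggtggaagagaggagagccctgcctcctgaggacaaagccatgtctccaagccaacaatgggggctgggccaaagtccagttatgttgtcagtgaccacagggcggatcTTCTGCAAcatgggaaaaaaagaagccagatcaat
Pilrb1, chr5:137858050-137858299, minus strand: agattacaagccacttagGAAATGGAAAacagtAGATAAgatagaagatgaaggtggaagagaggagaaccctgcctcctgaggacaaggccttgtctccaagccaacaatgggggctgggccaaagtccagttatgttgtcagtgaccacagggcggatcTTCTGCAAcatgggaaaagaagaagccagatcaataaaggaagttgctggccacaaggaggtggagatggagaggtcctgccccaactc
Cd300lf, chr11:115133993-115134242, minus strand: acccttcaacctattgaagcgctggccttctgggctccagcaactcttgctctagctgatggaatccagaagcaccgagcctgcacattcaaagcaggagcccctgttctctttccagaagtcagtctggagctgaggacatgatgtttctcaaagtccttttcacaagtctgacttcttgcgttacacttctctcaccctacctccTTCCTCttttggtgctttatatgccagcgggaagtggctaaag
Cd300a, chr11:114889791-114890040, plus strand: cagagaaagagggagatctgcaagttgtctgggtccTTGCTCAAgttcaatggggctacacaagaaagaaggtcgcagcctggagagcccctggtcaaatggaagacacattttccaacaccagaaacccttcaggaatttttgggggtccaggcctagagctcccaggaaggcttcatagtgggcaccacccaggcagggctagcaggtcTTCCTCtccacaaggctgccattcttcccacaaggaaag

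The Pilra and Pilrb1 sequences were nearly the same DNA, 98.0% identical over 196 bases when Pilrb1 was shifted by 54 bases. They shared the matches to the IRF motif (GAAA, any 2 bases, GAAA), the GATA motif AGATAA and the C/EBP motif TTGCNNAA. The Pilra window also held a match to the PU.1 motif GAGGAA, 211 to 206 bases before the start. That stretch lies outside the 196 bases shared by both windows, upstream of where the Pilrb1 window begins. Whether Pilrb1 has the same site was therefore not read. Cd300lf held 1 match, to the PU.1 motif, 43 to 38 bases before its start. Cd300a held a PU.1 match 39 to 34 bases before its start and a C/EBP match at 214 to 207. The Cd300lb window, chr11:114934372-114934621 on the minus strand, held none. Among all 32851 promoter windows of that length, 23.3% held the PU.1 motif, 9.56% the C/EBP motif, 9.99% the GATA motif and 2.98% the IRF motif. The others searched were the NF-kB motif (GGGA, any 4 bases, CC, in 17.6% of windows), the STAT motif TTCNNNGAA (7.02%) and the AP-1 motif TGANTCA (6.75%). A match is a run of letters, not a bound site.

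The arrays differed as a whole between the groups. Hybridisation controls, which are spiked into the hybridisation mix, averaged 11.91 ± 0.118 with MEC1 and 10.81 ± 0.0869 without at 21 days, and 12.57 ± 0.54 with MEC1 and 10.62 ± 0.128 without at 31 days (SD, n = 3 each). The difference averaged 1.53 over both days with an exact two-sided permutation p of 0.005 within days, the smallest possible. Poly-A controls, which are spiked into the RNA before labelling, were also higher with MEC1, by 0.64 at 21 days and 1.08 at 31 days (exact permutation p = 0.005). The labels used here give no batch, and a batch that followed the groups cannot be told apart from them. The array median was 0.20 higher with MEC1 at 21 days and 0.43 at 31 days, and centring on it lowers each change by as much. In both MEC1 comparisons no member changed direction under centring or quantile normalization. Mitochondrial transcripts differed by -0.77 and -1.11 (MEC1 minus no MEC1). The third late MEC1 mouse had the highest hybridisation controls, 13.18, and the highest array median, 4.40. With the hybridisation level as a covariate none of the 8 genes passed at either day; 92.1% of its variance lay between the groups, so the covariate and the groups can hardly be told apart. In that fit Pilra was at 2.55 and 4.02 and Cd300lf at 1.62 and 2.83, while Cd300a was at -1.30 and -1.07. Sirpa (0.43 and 1.20), Lilrb4a (1.17 and 2.74) and Cd200r1 (0.15 and 0.57) had the opposite direction in it at 21 and 31 days.

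With MEC1 the receptors split by gene rather than moving together. Pilra and Cd300lf, both inhibitory, were higher at 21 and at 31 days. Cd300a, inhibitory, and Cd300lb, activating, were lower at both. Sirpa and Cd200r1 were lower at 31 days. At 21 days 2 of the 8 genes rose and 2 fell at an adjusted p under 0.05, where 4.34% of all tested clusters passed, 1.83% as rises and 2.51% as falls. At 31 days 2 rose and 4 fell, where 43.8% of all tested clusters passed, 22.6% as rises and 21.1% as falls. With so broad a late background, passing at 31 days marks no gene out. The median log2 change of the 8 genes was -0.80 at 21 days and -0.93 at 31 days, against 0.02 and 0.04 over all tested clusters. Those clusters are not of like level. Clusters within 1 log2 unit of each gene's control level had medians from -0.38 to -0.13 at 21 days. At 31 days these ran from -1.07 to -0.38. In bulk RNA, fewer cells of a type and less RNA per cell cannot be told apart.

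Pilra binds sialylated ligands such as CD99 and PIANP and recruits phosphatases. Its log2 intensities at 21 days were 8.15, 8.22 and 8.15 in mice with MEC1, against 5.96, 6.69 and 6.62 in mice without. At 31 days they were 9.55, 9.80 and 8.70 with MEC1, against 6.90, 6.66 and 6.66 without. Every MEC1 mouse was above every control mouse of its day, and even the lowest late MEC1 mouse was above all early MEC1 mice. The log2 change was 1.75 (SE 0.274, adjusted p = 0.0101) at 21 days, 3.36-fold, and 2.61 (SE 0.274, adjusted p = 0.000301) at 31 days, 6.11-fold.

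Pilrb1, the activating neighbour, signals through DAP12. It read 7.49, 7.50 and 7.74 in early mice with MEC1, against 6.67, 6.89 and 7.29 in early mice without. Late mice had 8.15, 8.32 and 7.34 with MEC1, against 7.52, 7.45 and 7.44 without. The early groups did not overlap, while the third late MEC1 mouse lay below all 3 late controls. The change of 0.63 (SE 0.246, adjusted p = 0.161) at 21 days and of 0.47 (SE 0.246, adjusted p = 0.14) at 31 days did not pass. Without the third late MEC1 mouse the 31-day change was 0.76 with adjusted p = 0.016, and after centring each array on its median it was 0.04.

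A difference between 2 genes on 1 array removes any shift common to that array, so Pilra was also set against Pilrb1 within arrays. The log2 intensity of Pilra minus that of Pilrb1 averaged 0.60 ± 0.164 in early mice with MEC1 and -0.53 ± 0.284 in early mice without (SD, n = 3 each). Late, it averaged 1.41 ± 0.0611 with MEC1 and -0.73 ± 0.0954 without (SD, n = 3 each). The sign of such a difference has no meaning between 2 probe sets, but its shift does, and that shift was 1.12 at 21 days and 2.14 at 31 days, with no overlap between groups. In every MEC1 mouse, then, the inhibitory gene stood higher relative to its activating neighbour than in any control of that day.

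**Figure D1:**
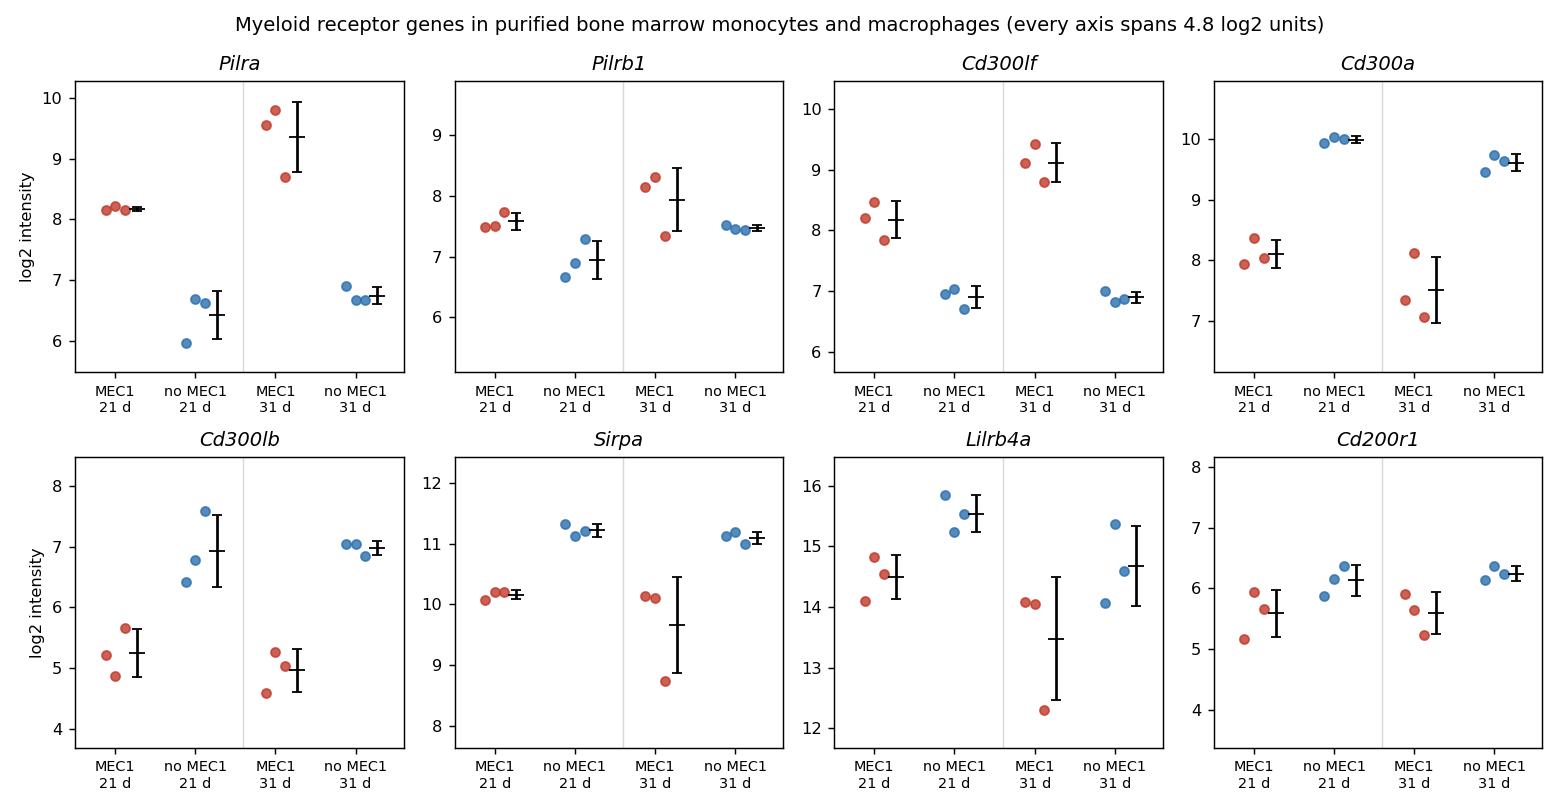
Log2 intensity of the 8 receptor genes in each mouse, with MEC1 (red) left of no MEC1 (blue) at 21 and 31 days, and black bars for mean ± SD of 3 mice. All vertical axes span the same number of log2 units at different offsets. Pilra and Cd300lf lie higher with MEC1 and Cd300a and Cd300lb lower, while the third MEC1 mouse at 31 days lies far below its group for Sirpa (8.74) and Lilrb4a (12.31).

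Cd300lf, also called CLM-1, is an ITIM receptor that binds phospholipids exposed on dying cells and serves as the entry receptor of mouse norovirus. It read 8.21, 8.47 and 7.85 in early mice with MEC1, against 6.96, 7.04 and 6.70 in early mice without. The late intensities were 9.12, 9.43 and 8.80 with MEC1, against 7.00, 6.82 and 6.87 without. No MEC1 value reached down to a control value, and the late MEC1 mice were all above the early ones. The change was 1.28 (SE 0.203, adjusted p = 0.0105) at 21 days, 2.42-fold, and 2.22 (SE 0.203, adjusted p = 0.000168) at 31 days, 4.66-fold.

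Cd300a, which binds the same class of exposed phospholipids, went the other way. It read 7.93, 8.37 and 8.03 in early mice with MEC1, against 9.93, 10.04 and 10.00 in early mice without. Its late values were 7.35, 8.12 and 7.07 with MEC1, against 9.46, 9.73 and 9.63 without. Every MEC1 mouse lay more than 1 log2 unit below every control of its day. The fall was -1.88 (SE 0.24, adjusted p = 0.00433) at 21 days, 3.68-fold, and -2.09 (SE 0.24, adjusted p = 0.000399) at 31 days, 4.27-fold.

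Cd300lb, or CLM-7, is the activating member and pairs with DAP12. It read 5.22, 4.87 and 5.66 in early mice with MEC1, against 6.42, 6.78 and 7.59 in early mice without. In late mice it read 4.58, 5.27 and 5.04 with MEC1, against 7.05, 7.05 and 6.85 without. The groups did not overlap at either day, and the dimmest value lay only 0.45 above its array's median. The change was -1.68 (SE 0.303, adjusted p = 0.0177) at 21 days, 3.20-fold lower, and -2.02 (SE 0.303, adjusted p = 0.00104) at 31 days, 4.06-fold lower. The early call rested on single mice: it did not pass without the first (adjusted p = 0.0666) or the second (0.0711) early MEC1 mouse, or the third early control (0.0511).

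Within the Cd300 cluster the 2 inhibitory genes moved apart. On the same array, Cd300lf minus Cd300a was 0.28, 0.10 and -0.18 in early mice with MEC1, against -2.97, -3.00 and -3.30 in early mice without. It was 1.77, 1.31 and 1.73 in late mice with MEC1, against -2.46, -2.91 and -2.76 in late mice without. The shift was 3.16 log2 units at 21 days and 4.31 at 31 days, beyond the spread within any of the groups. Cd300a minus Cd300lb, 2 genes of opposite sign in signalling, shifted by only -0.20 and -0.07 with overlapping groups. Pilra minus Cd300lf shifted by 0.47 and 0.39, also with overlapping groups, although those genes are on different chromosomes.

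**Figure D2:**
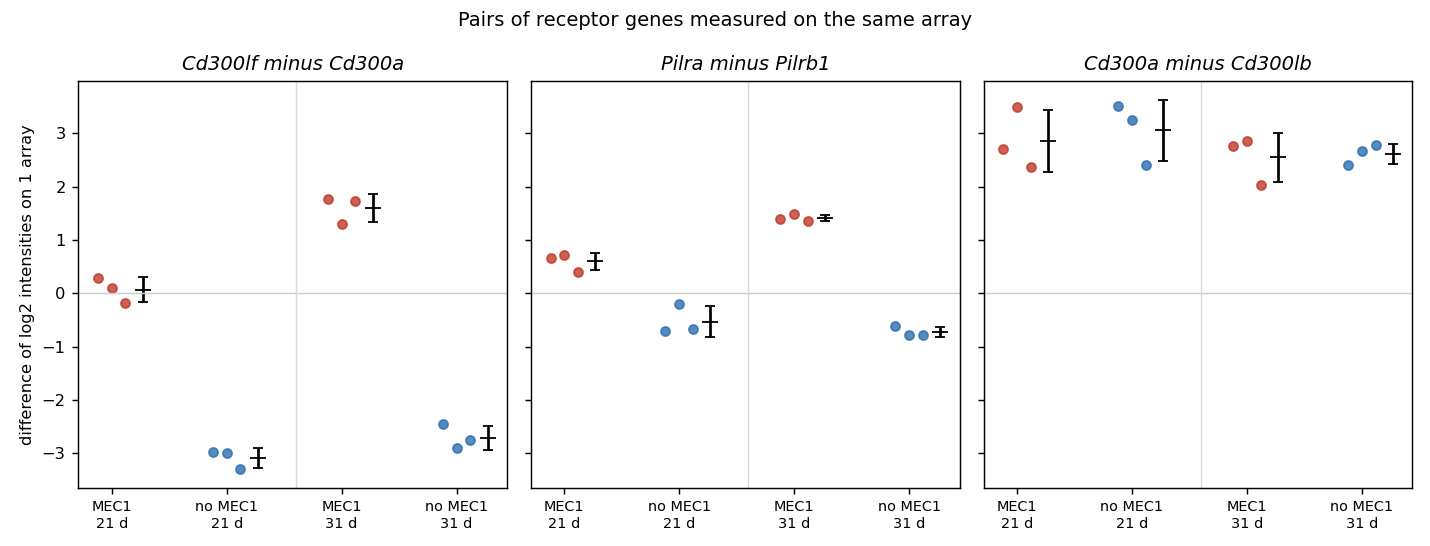
Difference of log2 intensities between 2 receptor genes on the same array, for each mouse with MEC1 (red) and without (blue) at 21 and 31 days, with mean ± SD of 3 mice in black. Cd300lf minus Cd300a and Pilra minus Pilrb1 are separated by MEC1 at both days, and Cd300a minus Cd300lb overlaps.

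Sirpa is the receptor for CD47, the signal by which a cell asks a macrophage not to engulf it. It read 10.07, 10.20 and 10.20 in early mice with MEC1, against 11.33, 11.12 and 11.21 in early mice without. Late mice had 10.13, 10.10 and 8.74 with MEC1, against 11.12, 11.19 and 10.99 without. The groups did not overlap, and the third late MEC1 mouse was far below the other two. The change of -1.06 (SE 0.304, adjusted p = 0.0735) at 21 days did not pass, and that of -1.44 (SE 0.304, adjusted p = 0.00478) at 31 days did, 2.72-fold lower. Without the third late MEC1 mouse both days passed, with -1.06 (adjusted p = 0.00247) early and -0.99 (adjusted p = 0.00198) late. Quantile normalization gave -0.86 late (adjusted p = 0.00885), and -0.61 (adjusted p = 0.0167) with that mouse's array omitted, a setting chosen after seeing the data.

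Lilrb4a, known as gp49B, is an ITIM receptor that binds fibronectin and an integrin. It read 14.10, 14.82 and 14.55 in early mice with MEC1, against 15.85, 15.24 and 15.54 in early mice without. At 31 days it read 14.08, 14.05 and 12.31 with MEC1, against 14.06, 15.37 and 14.60 without. The early groups did not overlap and the late ones did. Neither the change of -1.05 (SE 0.468, adjusted p = 0.205) nor that of -1.20 (SE 0.468, adjusted p = 0.0581) passed, and the late one was -0.61 without the third MEC1 mouse. The gene has a close copy, named Lilr4b in the platform's table, and whether the probes of each read the other was not tested.

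Cd200r1, the receptor for CD200, was dim. It read 5.17, 5.94 and 5.66 in early mice with MEC1, against 5.87, 6.15 and 6.37 in early mice without, and these overlapped. In late mice it read 5.91, 5.64 and 5.23 with MEC1, against 6.13, 6.37 and 6.23 without, and these did not. The change was -0.54 (SE 0.233, adjusted p = 0.196) at 21 days and -0.65 (SE 0.233, adjusted p = 0.0433) at 31 days, 1.57-fold lower. The late call rested on single mice: of the 12 fits that left out 1 array it passed in 5. It did not pass without the second (adjusted p = 0.0754) or the third late MEC1 mouse (-0.47, adjusted p = 0.154), without any 1 of the late controls (0.0677 to 0.121), without the third early MEC1 mouse (0.0512) or without the second early control (0.0582). After quantile normalization it was at -0.49 and did not pass (adjusted p = 0.194), and after centring on the array median at -1.08 (adjusted p = 0.0131).

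Bright clusters were lower as a whole in late MEC1 mice, so each change was also read against clusters of like level. Of the clusters above 8 log2 units in late control mice, 52.0% fell and 6.23% rose at 31 days. At 21 days the shares of those above 8 in early controls were 5.84% and 3.13%. Clusters within 1 log2 unit of the control level of Sirpa had a median change of -1.07 at 31 days, so that Sirpa lay only -0.37 beyond it. Cd300a lay -1.50 beyond its level's median at 21 days and -1.11 at 31 days. Pilra was 1.99 and 3.13 above the median of its level, and Cd300lf was 1.57 and 2.78 above. The groups of 7 of the 8 genes did not overlap at 21 days, against 28.5% of tested clusters, and those of 6 of 8 at 31 days, against 59.6%.

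**Figure D3:**
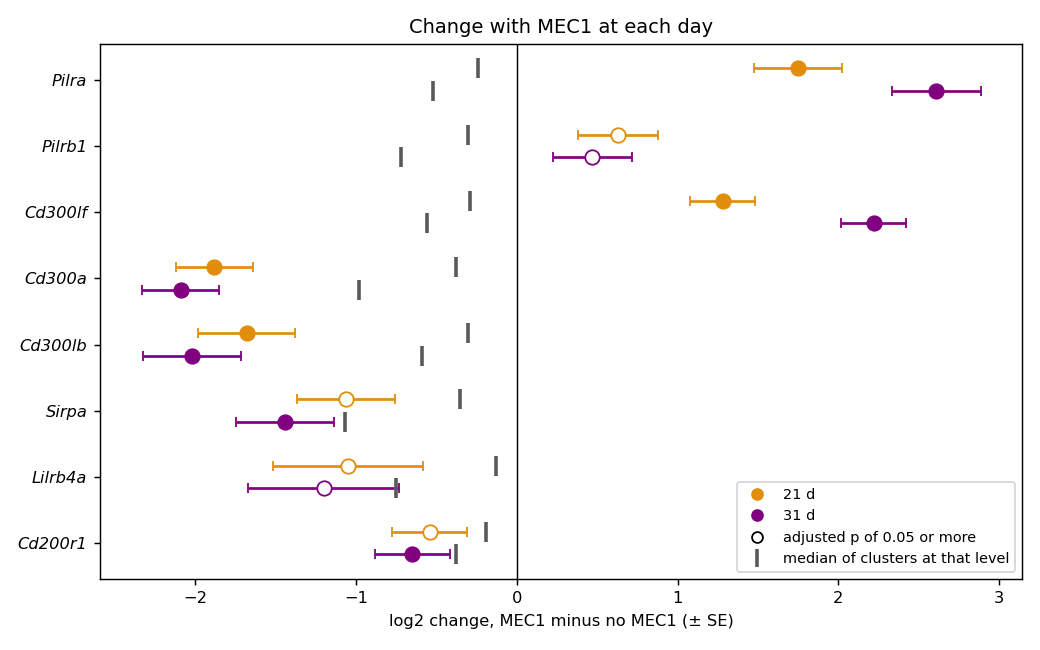
Log2 change, MEC1 minus no MEC1, of each receptor gene at 21 days (orange) and 31 days (purple), with bars of ± 1 SE and open circles where the adjusted p was 0.05 or more. Grey ticks give the median change of clusters within 1 log2 unit of the gene's control level. Pilra and Cd300lf lie far to the right of their ticks, and late Sirpa (-1.44) lies near its tick (-1.07).

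Monocyte markers were present: 6 of 7 listed had a cluster, all 6 were tested, and their mean level was 9.98 to 11.50 in late mice with MEC1, against 12.00 to 12.02 without. At 21 days 1 fell and at 31 days 4 did. Of all tested clusters, 1.83% rose and 2.51% fell at 21 days, and 22.6% rose and 21.1% fell at 31 days. Among those above 8 in controls of that day, 5.84% and 52.0% fell. Of 8 tested macrophage markers 1 fell early, and 3 rose and 3 fell late, and Timd4 was near the array median throughout. Of the 3 that rose, Mertk and C1qb were above the array median on at most 1 control array, so they passed the brightness filter only through MEC1 mice. Their part in the changes of the receptors was not tested. Mean levels of 5 tested B cell markers were 4.85 to 5.25 with MEC1 and 4.30 to 4.51 without at 21 days, and 5.15 to 5.76 with MEC1 and 4.38 to 4.47 without at 31 days. Of these, 2 rose early and 4 late, Pax5 by 1.34 and 2.23, while Ms4a1 and Igll1 stayed near or below the array median. Cd79a and Ebf1, both among those that rose, were above the array median on none of the control arrays and passed the filter only through MEC1 mice, so the filter partly fixes these counts. Their part in the rise of Pilra and Cd300lf was not tested.

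Markers of other marrow cells were counted beside calls in 4.34% of all tested clusters at 21 days and 43.8% at 31 days. Of clusters above 8 log2 units in late controls, 52.0% fell late, so a late fall by itself marks no cell type out. Of 8 erythroid markers 4 fell early and all 8 late, to a mean level of 5.19 to 5.90 with MEC1, against 10.51 to 11.08 without. Dendritic cell markers (9 tested) fell in 2 and 5 cases, and of 8 basophil and mast cell markers none fell early and 7 did late. Neutrophil markers (17 tested) had no early call, and late 1 rose and 7 fell. They were about as bright as the monocyte markers, at a mean level of 10.32 to 12.33 in late mice with MEC1, against 12.43 to 12.83 without. The share of the RNA that came from such cells was not tested. All 7 proliferation genes fell late and none early. Of 6 eosinophil markers none passed, of 4 megakaryocyte markers 1 fell late, and of the T and natural killer cell genes Cd3e, Cd4, Cd8a, Ncr1 and Klrb1c were near or below the array median and Cd3d did not pass. Tbx21 rose by 0.92 and 1.17 at 21 and 31 days, and Eomes, called higher at both days, was above the array median on none of the control arrays and passed the filter only through MEC1 mice. The part of these shifts in the falls of Cd300a, Cd300lb and Sirpa was not tested.

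Whether the response grew between the days was tested as a difference of the 2 MEC1 effects. None of the 8 genes passed, in a comparison where 0.00269% of tested clusters did, and 2 of the 8 had an unadjusted p under 0.05, as did 4793 of the 37240 clusters. These 2 were Pilra, at 0.86 (SE 0.388, adjusted p = 0.388), and Cd300lf, at 0.94 (SE 0.286, adjusted p = 0.331). The other 6 ranged from -0.38 to -0.11. Late against early mice with MEC1 gave 1.18 for Pilra (adjusted p = 0.112) and 0.94 for Cd300lf (adjusted p = 0.0971), and none of the 8 passed, against 0.226% of clusters. Late against early mice without MEC1 gave between -0.87 and 0.52, none passing, against 0.00806% of clusters. Both comparisons with MEC1 share mice with the tests above. Without the third late MEC1 mouse the Pilra change from early to late MEC1 mice was 1.50 with adjusted p = 0.0475.

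The order of group means separated the genes. Pilra averaged 9.35 ± 0.577 in late and 8.17 ± 0.0404 in early mice with MEC1, above late (6.74 ± 0.139) and early controls (6.42 ± 0.403), where neighbours overlapped only between the controls (SD, n = 3 each). Cd300lf had the same top 2 groups, at 9.12 ± 0.315 and 8.18 ± 0.311, and control means that were equal at 6.90. Cd300a averaged 7.51 ± 0.544 in late and 8.11 ± 0.231 in early mice with MEC1, below late (9.61 ± 0.137) and early controls (9.99 ± 0.0557), and neighbours overlapped only between the MEC1 groups. Cd300lb and Sirpa had both control groups on top, with no step inside the control pair or inside the MEC1 pair beyond its overlap. In Pilrb1, Lilrb4a and Cd200r1 an MEC1 group overlapped the control group next to it.

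The genes most alike were found among 13656 named genes by the root mean square difference of centred log2 profiles over the 12 arrays, which share processing and the 4 groups. The closest to Pilra was Cd300lf (0.362), then Cp (0.436), which encodes ceruloplasmin, and Pax5 (0.495), a B-lineage transcription factor. The closest to Cd300lf were Cp (0.23), Hspe1-ps4 (0.248) and Mir30c-1 (0.267). The closest to Cd300a were Sfxn3 (0.205), Rasa3 (0.263) and Grk5 (0.267), and to Cd300lb, Krt80 (0.266), Myh10 (0.279) and Jmy (0.281). Pilrb1 was closest to Orm2 (0.227), Lipg (0.231) and its paralog Pilrb2 (0.231), and Lilrb4a to its copy Lilr4b (0.205), Clk4 (0.216) and Clk1 (0.24). In both cases the paralog of the receptor was among its 3 nearest genes. Sirpa was closest to Plekho2 (0.149), Ctsh (0.156) and Dock2 (0.157), and Cd200r1 to Nptn (0.136), Sp3 (0.146) and Vps41 (0.152). A gene that varies little is close to many others, so these distances do not compare across receptors.

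Among the ligands of the receptors, 10 of 10 listed genes were tested. At 21 days none rose and 3 fell, with a median change of -0.61, and at 31 days 2 rose and 5 fell, with a median of -0.62. Of all tested clusters 2.51% fell at 21 days, and 22.6% rose and 21.1% fell at 31 days. Colec12, a scavenger collectin reported as a PILRA ligand in human, read 6.12, 6.13 and 5.34 in late mice with MEC1, against 8.97, 8.81 and 8.85 in late mice without. Its changes were -1.94 (adjusted p = 0.0037) at 21 days and -3.01 (adjusted p = 8.5e-05) at 31 days, and no MEC1 mouse overlapped a control.

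Cd47, the ligand of Sirpa, changed by -0.84 at 21 days (adjusted p = 0.188) and fell by 1.66 at 31 days (adjusted p = 0.00522). Late mice read 14.08, 13.97 and 12.62 with MEC1, against 15.11, 15.19 and 15.35 without. Both transcripts, Sirpa and Cd47, were thus lower in the purified cells of late mice with MEC1. Ligand genes were read only in those cells, so ligand on other cells, MEC1 included, was not measured. Fn1, the fibronectin that Lilrb4a binds, fell by 1.89 at 21 days (adjusted p = 0.00766) and by 1.10 at 31 days (adjusted p = 0.0113). The Pilra ligand Cd99 fell by 1.11 at 31 days (adjusted p = 0.0245), and its relative Cd99l2 fell by 1.05 at 21 days (adjusted p = 0.0246) and by 0.85 at 31 days. Cd99 did not pass without the first (adjusted p = 0.0669) or the third (0.0814) late MEC1 mouse or the first late control (0.0878), nor the early Cd99l2 call without the first or second early MEC1 mouse or the second or the third early control (0.0747 to 0.0913). The 2 ligands called higher late, Npdc1 (0.48) and Pianp (0.41), lay within 0.61 of the array median on every array. After centring on the array median they were at 0.05 and -0.02. Cd200, the ligand of Cd200r1, did not pass (0.30 at 31 days, adjusted p = 0.0985) and lay no more than 0.06 above the array median.

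Of the phosphatases and adaptors that ITIM receptors use, 12 of 15 listed genes were tested. None passed at 21 days, and at 31 days none rose and 6 fell, with median changes of -0.34 and -0.68. At 31 days 21.1% of all tested clusters fell, and 52.0% of those above 8 log2 units in late controls. The late count by itself therefore marks nothing out. Inpp5d, the phosphatase SHIP1, read 9.48, 9.80 and 8.89 in late mice with MEC1, against 11.15, 11.07 and 10.88 in late mice without. It fell by 1.64 (adjusted p = 0.000736). Dok3, an adaptor that recruits SHIP1, fell by 1.22 (adjusted p = 0.0212), and Ptk2b, the kinase PYK2, fell by 1.15 (adjusted p = 0.00251). Ptpn6, the phosphatase SHP-1, had changes of 0.01 at 21 days and -0.57 at 31 days (adjusted p = 0.117) and did not pass. Ptpn11, another phosphatase of the list, had a change of -0.32 at 21 days (adjusted p = 0.486). It fell by 1.13 at 31 days (adjusted p = 0.00892), and how that call depends on single mice is not given here.

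On the activating side all 10 listed genes were tested. At 21 days 1 fell, and at 31 days 9 fell, with median changes of -0.69 and -1.24. Over all tested clusters 2.51% fell at 21 days and 21.1% at 31 days. Among those above 8 log2 units in controls of that day, 5.84% and 52.0% fell. Tyrobp, the adaptor of Pilrb1 and Cd300lb, read 14.29, 14.16 and 12.49 in late mice with MEC1, against 15.89, 16.09 and 15.46 in late mice without. It fell by 2.17 (adjusted p = 0.00334), after a change of -1.37 at 21 days that did not pass (adjusted p = 0.0894). Syk fell by 1.35 at 21 days (adjusted p = 0.0263) and by 1.63 at 31 days (adjusted p = 0.00163), and Plcg2 fell by 1.98 at 31 days (adjusted p = 0.0015). The 21-day call of Syk did not pass without the first (adjusted p = 0.0789) or second (0.0506) early MEC1 mouse, or without any 1 of the early controls (0.0544 to 0.0916). Without the third late MEC1 mouse Dok3 was at -0.74 and did not pass (adjusted p = 0.0508), nor did it without the second late control (0.0815). After quantile normalization Dok3 (-0.60, adjusted p = 0.113) and Ptk2b (-0.46, adjusted p = 0.0578) did not pass. Most genes of both lists lay above 8 log2 units, where falls were frequent at 31 days.

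**Figure D4:**
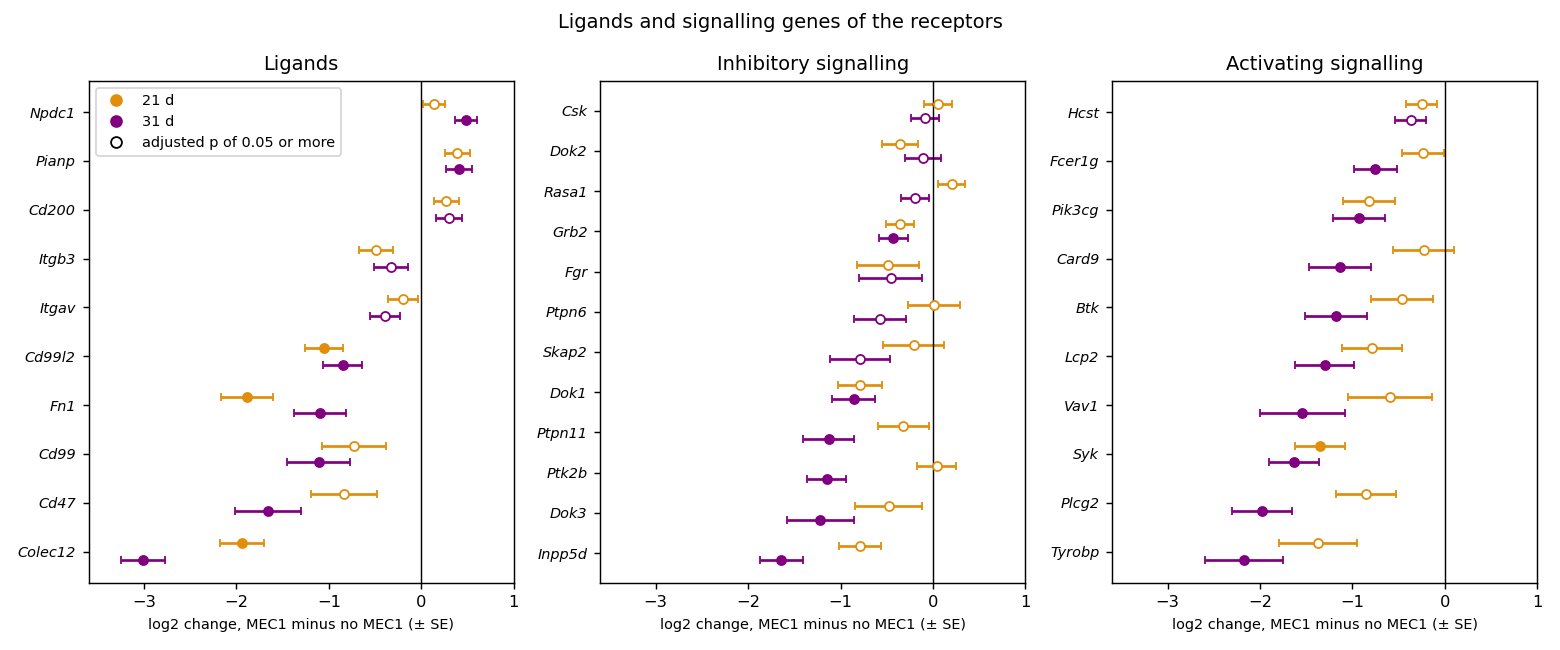
Log2 change, MEC1 minus no MEC1, of the tested ligands, inhibitory signalling genes and activating signalling genes at 21 days (orange) and 31 days (purple), with bars of ± 1 SE and open circles where the adjusted p was 0.05 or more. Most filled points lie left of 0, and Colec12 (-3.01 at 31 days) lies farthest left.

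The other Cd300 genes and paired receptors were sparsely measured. Of 9 further Cd300 family genes listed, 3 had their own cluster. Cd300lg, an endothelial member, fell by 1.34 at 21 days (adjusted p = 0.00653) and by 1.65 at 31 days (adjusted p = 0.000437). Cd300ld, an activating member, read 5.82, 5.82 and 6.07 in late mice with MEC1, against 5.21, 5.02 and 5.37 in late mice without, and rose by 0.70 (adjusted p = 0.0164). It did not pass without the third late MEC1 mouse (0.62, adjusted p = 0.0559), without the second late control (0.61, adjusted p = 0.0636) or after centring on the array median (0.27, adjusted p = 0.19). Cd300e did not pass at either day.

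Of 18 listed relatives of the paired receptors 6 were tested, with none called early, and 1 higher and 1 lower late. Late, 22.6% of all tested clusters rose and 21.1% fell, so these late counts mark nothing out. Lilra6 fell by 1.36 at 31 days (adjusted p = 0.00671), and the higher one, Cd200r2 (0.38, adjusted p = 0.0423), lay at the array median and was -0.05 after centring. Cd200r2 was above the array median on none of the control arrays and passed the brightness filter only through MEC1 mice. The filter thus partly fixes that count. Pilrb2 gave 0.66 and 0.51, close to Pilrb1, and did not pass. Whether the array separates such close copies was not tested, and their values are uncertain.

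Among 23 genes listed as other inhibitory receptors of myeloid cells, 17 were tested. None passed at 21 days, and 1 rose and 5 fell at 31 days, with a median change of -0.22 at both. Over all tested clusters 22.6% rose and 21.1% fell at 31 days. Vsir, the checkpoint receptor VISTA, fell by 2.17 at 31 days (adjusted p = 0.0009), Ceacam1 fell by 1.70 (adjusted p = 0.00618) and Milr1, an inhibitory receptor of mast cells, fell by 1.59 (adjusted p = 0.0185). Cd33, a sialic acid-binding lectin, was the one that rose, by 1.27 (adjusted p = 0.0109), and was at 0.84 after centring, which did not pass (adjusted p = 0.0672). Without the second late MEC1 mouse, the highest at 10.50, it was at 0.82 (adjusted p = 0.0145). Milr1 did not pass without the third late MEC1 mouse (-1.18, adjusted p = 0.0722) or the second late control (0.0506), nor after quantile normalization (-0.96, adjusted p = 0.0739). Among the 8 genes and this list, the genes called higher at 31 days were Pilra, Cd300lf and Cd33.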

How the data were processed

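RNA of purified marrow monocytes and macrophages was hybridised to Clariom D mouse arrays, 1 per mouse. The deposited values are log2 intensities per transcript cluster, which the authors made with Affymetrix Expression Console and RMA (per the submitters' processing notes, version not stated). Scanner files were not used here. The values ran from 1.67 to 19.93. Of 72688 features 6732 were controls and were left out. In the platform's annotation 31258 clusters carried 1 symbol, 1492 several and 33206 none, and 1789 symbols were updated through RefSeq.

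The members and gene lists were chosen with earlier results of these data known. Tests covered the 37240 clusters that exceeded their array's median in 3 or more arrays. A model with 4 group means was fitted to all 12 arrays with limma 3.58.1 in R 4.3.3, moderated by empirical Bayes. The same fit was run on simulated data with independent noise and no array-wide shift, so that run says nothing about such shifts. Tests were two-sided, with Benjamini-Hochberg adjustment across those 37240 and a threshold of 0.05. Mouse numbers mark different animals. The genes named from each list were the largest changes, up to 3 per direction and day, that passed with groups that did not overlap. Ptpn6, Ptpn11, Cd200, Cd300e, Pilrb2 and the marker genes were named after their values were seen. Averaging over the clusters of a gene changes nothing where each receptor has 1. Other alternatives were filters, scalings, array weights, other fits, the hybridisation-control covariate and leaving out each array. Quantile normalization without the third late MEC1 array was added after seeing the data. The number of arrays limits the precision.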

Additional observations from a re-analysis of the deposited data

Results flagged for a closer look

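Cd33, a sialic acid-binding lectin, had MEC1 effects of opposite sign at the 2 days. At 21 days it read 7.92, 8.32 and 7.88 with MEC1, against 9.61, 9.03 and 9.15 without, a change of -1.22 (adjusted p = 0.057). At 31 days it read 9.22, 10.50 and 9.13 with MEC1, against 8.40, 8.33 and 8.32 without, a change of 1.27 (adjusted p = 0.0109). Without the second late MEC1 mouse, which was the highest, that change was 0.82 (adjusted p = 0.0145). All 3 early MEC1 mice were below all early controls, and all 3 late MEC1 mice above all late controls. The late effect minus the early one was 2.49 (SE 0.454), with an unadjusted p of 0.000198 and an adjusted p of 0.177 in limma over all tested clusters, so it did not pass.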

How the results depend on the processing

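Over 22 alternatives, Pilra, Cd300a and Cd300lf passed at both days in 21, the exception being the hybridisation-control covariate. Cd300lb passed in 17 at 21 days and in 21 at 31 days, Sirpa in 5 and 21, Cd200r1 in none and 11, Pilrb1 in 3 and 4, and Lilrb4a in none and 4. The direction of each member held at both days in all alternatives but that covariate, which left 0 members called at 21 days and 0 at 31 days. It turned Lilrb4a to 1.17 and 2.74, Sirpa to 0.43 and 1.20 and Cd200r1 to 0.15 and 0.57 at 21 and 31 days. At 31 days it also turned Cd300ld (-0.06), Lilra6 (0.80), Vsir (0.24), Ceacam1 (1.41), Milr1 (1.34), Cd47 (1.20), Dok3 (1.42), Ptk2b (0.12), Tyrobp (1.34) and Plcg2 (0.72). Cd200r2 was -0.04 under quantile normalization and -0.05 when centred, and Pianp -0.02 when centred. Leaving out 1 array gave 3 to 5 members called at 21 days and 5 to 7 at 31 days, and 0 to 1 for 31 against 21 days with MEC1. In that last comparison quantile normalization called 2 (Pilra 1.52, Cd300lf 1.28), array weights 3, and the added quantile normalization 1. For the difference of effects, array weights called 2, Pilra (1.33) and Cd300lf (0.91). The shares of all tested clusters given above are those of the main fit. No such share is given for the alternatives, so their counts of members mark no gene out.

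Small differences of effects, none passing, changed sign. Pilrb1 was 0.17 under quantile normalization, 0.26 with array weights, 0.49 with the covariate, -0.35 to 0.14 when 1 array was left out and 0.32 under the added quantile normalization. Cd300a was 0.09 (quantile), 0.23 (covariate), -0.52 to 0.01 (1 array left out) and 0.17 (added quantile), and Cd300lb 0.29 with array weights. Sirpa was 0.03 (quantile), 0.77 (covariate), -0.62 to 0.08 (1 array left out) and 0.27 (added quantile). Lilrb4a was 0.07 (quantile), 1.57 (covariate), 0.47 (added quantile) and -0.45 to 0.44 (1 array left out), and Cd200r1 was 0.42 (covariate), 0.16 (added quantile) and -0.32 to 0.07 (1 array left out). For 31 against 21 days with MEC1, Cd300lb was 0.20 with array weights, Lilrb4a 0.32 and Sirpa 0.39 with the covariate, and Sirpa 0.19 under the added quantile normalization. Without MEC1, Cd300lb was -0.09 with array weights and -0.20 to 0.38 with 1 array left out, and Cd200r1 -0.01 with the covariate and down to -0.02 with 1 array left out. The cause was not tested.

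The replicate numbers belong to different mice, and same-numbered deviations correlated between -0.358 and 0.415, so they do not pair the samples. With a replicate block 4 members were called at 21 days and 5 at 31 days, where Cd200r1 did not pass (adjusted p = 0.0585). Depth has no counterpart here: Cd300lb and Cd200r1 lie nearest the array median among the members, and the 12 arrays limit the precision.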
